A study of Mus musculus with 13 samples.

Results

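Cholinergic neurons of the mouse medial habenula were described here by the transcripts found on their ribosomes, set against the whole tissue they lie in. The members were the 6 immunopurified (IP) libraries and the 1 input library of wild-type Chat-TRAP mice, 7 of the 13 samples of the series. They were chosen by their labels, with earlier results of these data known. The other 6 samples, IP libraries of Gpr151 knockout mice with the same transgene, were not used here. Both groups came from adult mice (over 8 weeks of age) that carried the Chat-TRAP DW167 transgene and an intact Gpr151 gene. In such mice a ribosomal protein fused to green fluorescent protein is made in cells that use the Chat promoter, so beads with antibodies against that fluorescent protein pull down their polysomes (translating ribosome affinity purification, TRAP). DW167 names 1 transgenic line, so the captured cells are those in which that line makes the tagged protein. Each library pooled the dissected habenulae of 4 mice, or of 3 mice for library 852. The input was RNA of the unpurified homogenate, and with 1 input library its own spread is unknown. The labels give no treatment, but the names of the deposited tables mention saline for 5 of the IP libraries, and saccharin as well as saline for the input. Whether the input mice were treated like the IP mice is therefore not known, and a difference in treatment cannot be told apart from the difference between IP and input in any ratio below.

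The habenula is a small paired nucleus of the epithalamus, and its medial part sends the fasciculus retroflexus to the interpeduncular nucleus. Ventral medial habenula neurons are cholinergic and also release glutamate, while dorsal ones make substance P. These neurons are known for dense nicotinic receptors of an unusual subunit make-up, for presynaptic GABA-B receptors that increase rather than reduce release, and for a part in nicotine aversion and withdrawal.

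Levels are CPM (gene counts scaled to a common library size) after TMM scaling, a correction for differences in RNA composition. The ratio of each IP library to the input is given as log2 after adding 1 CPM to both, and a gene's ratio is the median of its 6 values, with the range over the 6 libraries. To be described, a gene had to reach 5 CPM either in the input or in the average IP library, which 11309 of the 22682 shared symbols had. A gene under 5 CPM in the input could pass only through the IP libraries, which favours an enriched call. It was called enriched when all 6 IP libraries lay at least 2 times above the input, and depleted when all 6 lay at 0.5 times the input or less. Of all genes past the filter, 664 were enriched (5.87%) and 1001 depleted (8.85%), and these shares are the background for every count below. The median ratio over all genes was 0.12. With library totals in place of TMM that median moved to -0.07, and 538 genes were enriched and 1274 depleted. No p-value is given, because 1 input library offers no replicate check. A ratio compares relative levels, so fewer cells of a type and less RNA per cell cannot be told apart.

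Each IP library held 28375912 to 58502055 gene counts, and the input held 54701790. A count of 0 allowed up to 0.0529 to 0.121 CPM per library, counting error only. The count tables did not share 1 list of genes: the input listed 37328 symbols, libraries 682 and 852 listed 32532, and libraries 1091 to 1094 listed 24454. Shared symbols held 80.6% of the gene counts of the input and 85.9% to 97.0% of those of an IP library. Library 1091 stood apart among the IP libraries. It was the lowest of the 6 for 373 of the 664 enriched genes and the highest for 641 of the 1001 depleted genes. It also had the highest median in 10 of 11 lists made of genes of other cells or neurons and of long noncoding RNAs. The exception was the endothelial and mural markers, highest in library 1093. Reads in no annotated feature were 13.2% of the total of library 1091, against 9.44% to 10.1% in the other IP libraries and 10.8% in the input. Without library 1091, 881 genes were enriched and 1401 depleted. Libraries 682 and 852 alone gave 1317 enriched and 1769 depleted genes, and libraries 1091 to 1094 alone 783 and 1116. Counts of a list that move by over 1.5 times without library 1091 are given beside the list, unless they differ by 1 gene.

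**Figure D1:**
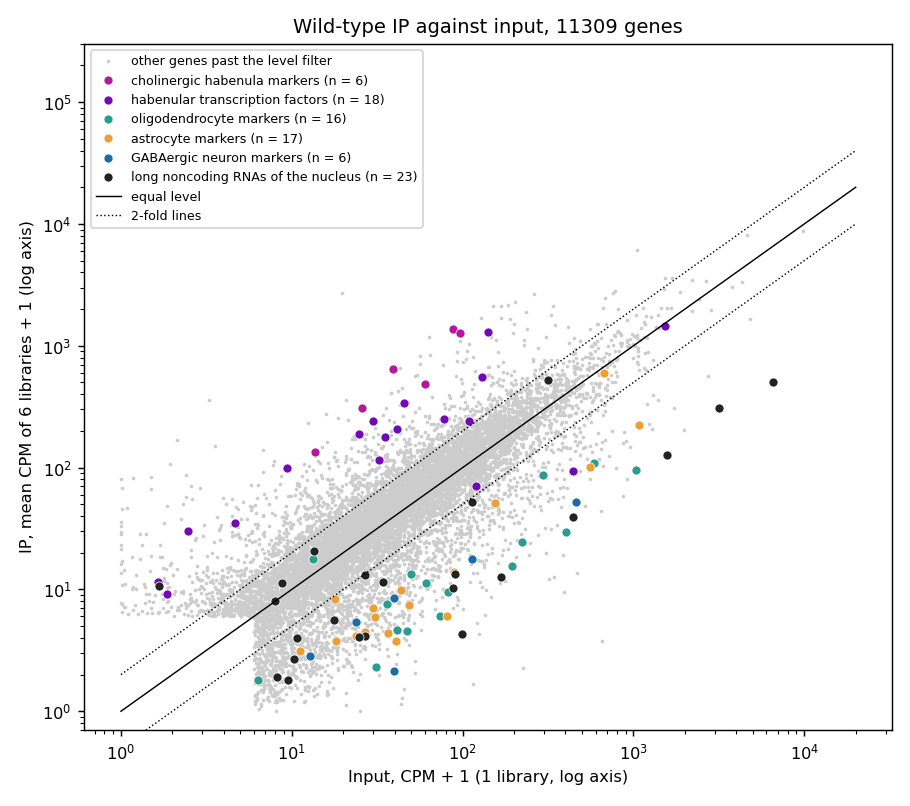
Mean CPM of the 6 IP libraries against CPM of the input, each with 1 CPM added and on log axes, for the 11309 genes past the level filter (grey) and 6 gene lists (coloured); the solid line marks equal levels and the dotted lines 2-fold differences. The 6 cholinergic markers lie above the upper dotted line, while most oligodendrocyte, astrocyte, GABAergic and listed long noncoding RNA genes lie below the lower one.

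Overlap between annotated genes moved with the calls and has to be read beside them. For each gene the share of its exon bases covered by exons of another GENCODE M21 gene on either strand was computed. Among 6887 genes with no such overlap 5.02% were enriched. Among 113 genes with over 50% and up to 75% of their exon bases overlapped 36.3% were enriched, and among 55 genes above that 58.2%. Of the 20 most enriched genes with a gene name, 18 had over 50% of their exon bases overlapped and none had 10% or less. They were Gnas, Fam219aos, Prrt2, Ilk, Rab43, Vps25, Tomm6, Galnt2, Scamp4, Aarsd1, Nppa, Zbed6, Pdcd2, Ccpg1, Nme3, B3gnt2, Glcci1, Cox20, Zbtb9 and Rab4b. Gnas, the stimulatory G protein alpha subunit, had 18.7 CPM in the input and 2328 to 3253 CPM (median 2681) in the IP libraries, and at 22% it had the lowest overlap of these 20. Of the 168 genes over 50%, 75 overlapped a gene that is listed in the input's table but in no IP table, and 52.0% of these were enriched, against 36.6% of the other 93. Reads that the counting tool left out as ambiguous between genes were 3.98% of the input's total, 1.31% and 1.33% in libraries 682 and 852, and 0.612% to 0.714% in libraries 1091 to 1094. Whether the annotation used for counting set these ratios was not tested. Among the 9544 genes with at most 10% overlap, a restriction added once the data had been seen, 469 were enriched and 882 depleted. Where a gene named below has over 10% overlap, the share is given.

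**Figure D2:**
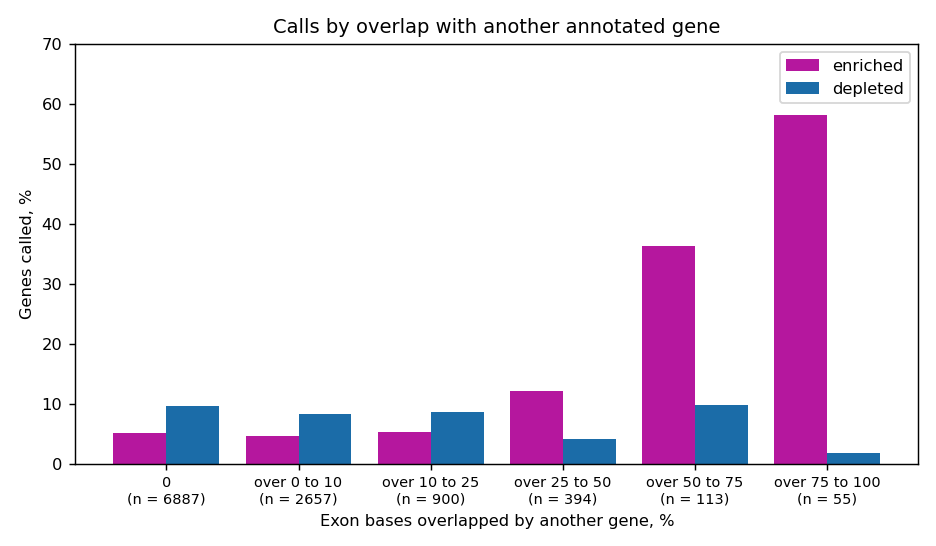
Percent of genes called enriched and depleted in 6 classes of exon overlap with another annotated gene, with the number of genes in each class under the bars. The enriched share is between 4.63% and 5.22% up to an overlap of 25% and reaches 58.2% in the last class.

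The 6 marker genes of cholinergic habenula neurons were all enriched, so the label matched the data. Slc18a3, the vesicular acetylcholine transporter, had 38.2 CPM in the input and 267 to 1139 CPM (median 595) in the IP libraries. Chat, the enzyme that makes acetylcholine, had 12.7 CPM in the input and 95.7 to 185 CPM (median 125) in the IP libraries. Slc5a7, the high-affinity choline transporter, had 24.6 CPM in the input and 224 to 456 CPM (median 294) in the IP libraries. No IP library of these 3 genes overlapped the input, and the lowest of them was library 1091 for Slc18a3 and Chat and library 1093 for Slc5a7. Of these 3, Slc18a3 had the widest spread, with library 1091 lowest and library 852 highest. Over the 6 markers the median ratio was 3.60, with library medians of 3.02 to 4.08.

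Chat and Slc18a3 share 1 locus on chromosome 14, where Slc18a3 lies inside the first intron of Chat, and Chrna3 sits in the nicotinic cluster of chromosome 9. Their promoter sequences are shown because these are the transcripts by which the captured cells are defined and which moved together in the IP. Each is the stretch upstream of the RefSeq start (GRCm38.p6), up to 250 bases long and without the bases that a GENCODE M21 exon covers, read 5′ to 3′ on the minus strand. They lie at chr14:32464851-32465041 for Slc18a3, chr14:32465990-32466159 for Chat and chr9:55026563-55026812 for Chrna3. Capitals mark the E-box CAGCTG and the GC box GGGCGG, each searched on both strands.
Slc18a3: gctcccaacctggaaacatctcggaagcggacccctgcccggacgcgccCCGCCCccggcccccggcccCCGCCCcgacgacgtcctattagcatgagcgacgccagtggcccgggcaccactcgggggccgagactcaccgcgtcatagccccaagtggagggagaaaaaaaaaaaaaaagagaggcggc
Chat: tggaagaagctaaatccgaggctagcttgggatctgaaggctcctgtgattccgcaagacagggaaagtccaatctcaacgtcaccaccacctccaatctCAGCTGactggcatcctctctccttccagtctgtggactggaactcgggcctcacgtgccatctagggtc
Chrna3: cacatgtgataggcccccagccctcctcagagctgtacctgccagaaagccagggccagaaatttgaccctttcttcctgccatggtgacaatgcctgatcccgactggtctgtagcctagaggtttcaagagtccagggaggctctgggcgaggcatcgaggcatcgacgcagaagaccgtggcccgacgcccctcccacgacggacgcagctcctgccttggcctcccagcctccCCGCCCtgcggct
The Slc18a3 stretch held 2 GC boxes and no CAGCTG, the Chat stretch 1 CAGCTG and no GC box, and the Chrna3 stretch 1 GC box and no CAGCTG. Other forms of the E-box were not searched. In 250 bases upstream, 32.7% of all 32851 RefSeq windows held a GC box and 13.0% this E-box. Among windows of genes with at most 10% overlap, the E-box was found in 15.4% of 488 windows of enriched genes, 15.3% of 924 of depleted genes and 11.6% of 8491 of the rest. The same windows held a GC box in 57.2%, 49.2% and 59.4%. Enriched and depleted genes thus had this form of the E-box at nearly equal shares.

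Genes of acetylcholine handling were found on both sides of the input. Of 16 listed genes 12 passed the filter, of which 4 were enriched, 2 depleted and 6 neither. Besides the 3 markers the fourth enriched gene was Prima1, the membrane anchor of acetylcholinesterase, with 4.74 CPM in the input and 39.8 to 98.1 CPM (median 68.9) in the IP libraries. Ache, acetylcholinesterase itself, had 27.9 CPM in the input and 18 to 46.1 CPM (median 27.1) in the IP libraries, and its IP libraries lay on both sides of the input. Choline kinase Chka was depleted at -1.99 (range -2.14 to -1.89) and the choline transporter-like gene Slc44a1 at -1.63 (range -2.12 to -1.36). Chkb, with 57.6% overlap, ran from 1.43 to 21.9 CPM between IP libraries and was not called. Pcyt1a went the other way without being called. Per kilobase of exon it stood at 17.2 to 24.6 CPM in the IP libraries and 8.83 CPM in the input. Per kilobase of exon, the mean level in the IP was 264 ± 118 CPM (SD, n = 6) for Slc18a3, 56.9 ± 15.6 for Prima1, 54.6 ± 15.4 for Slc5a7 and 28.5 ± 7.62 for Chat. Slc18a3 lay above the others in every library. The ranges of Prima1 and Slc5a7 overlapped, and Chat lay below Slc5a7 but overlapped Prima1.

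Nicotinic receptors are pentamers of alpha and beta subunits, and 4 of the 7 subunits past the filter were enriched, none depleted. Chrna3 had 86.5 CPM in the input and 1079 to 1679.5 CPM (median 1345) in the IP libraries. Chrnb4, its partner in the ganglion-type receptor, had 95.2 CPM in the input and 899 to 1592 CPM (median 1251) in the IP libraries. Chrnb3, an accessory subunit, had 37.3 CPM in the input and 329.6 to 590.1 CPM (median 367) in the IP libraries. All 6 IP libraries of these 3 genes lay above the input without overlap. Chrna5, the accessory subunit of the same chromosome 9 cluster, was rare on both sides at 0.426 CPM in the input and 3.07 to 7.14 CPM (median 5.75) in the IP libraries, and the input value rests on 21 counts. The brain-wide subunits Chrna4 and Chrnb2 were not called: Chrna4 had 228 CPM in the input and 217 to 276 CPM (median 243) in the IP libraries, a range on both sides of the input, and Chrnb2 a ratio of 0.81 (range 0.49 to 1.05) with 16.3% overlap. Chrna7, the homomeric subunit, had a ratio of -0.23 (range -0.47 to 0.09). Per kilobase the order of mean IP levels was Chrnb4 (341 ± 76.2 CPM, SD, n = 6), Chrna3 (260.2 ± 47.4), Chrnb3 (64.6 ± 16.2), Chrna4 (48.4 ± 4.8), Chrnb2 (13.9 ± 1.87), Chrna5 (1.72 ± 0.54) and Chrna7 (1.06 ± 0.197). Library ranges overlapped between Chrnb4 and Chrna3, between Chrnb3 and Chrna4 and between Chrna5 and Chrna7, so those neighbours are not ordered beyond their spread. Chrna2 and Chrna6 did not pass the level filter. With a pseudocount of 5 CPM, 3 subunits were enriched, Chrna5 no longer among them, and the median of the 7 was 0.98 in place of 2.23. Chrna5 passed the filter only through the IP libraries. A filter of 1 CPM gave 4 enriched of 10 subunits with a median of 0.71. With no filter 4 of 15 were enriched, with a median of 0.087.

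**Figure D3:**
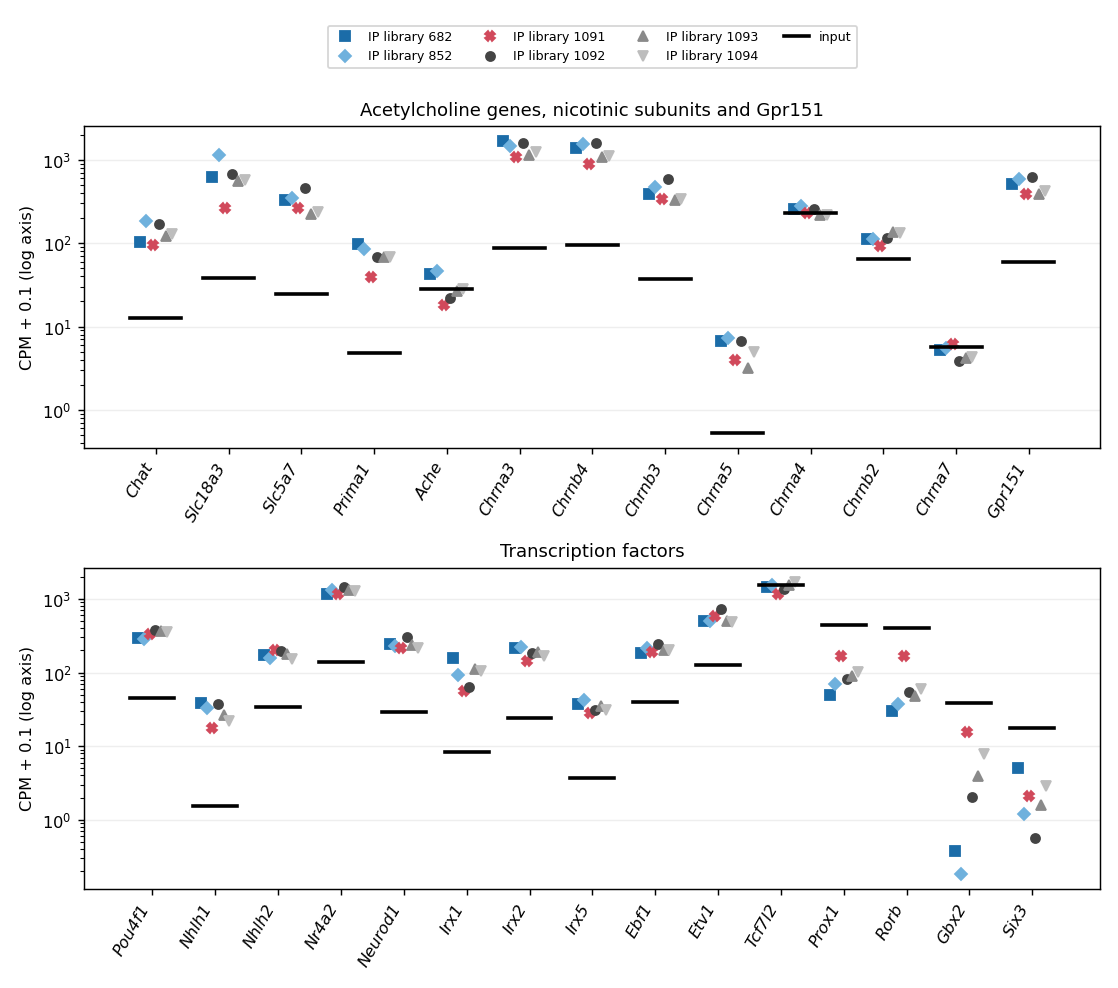
CPM (0.1 added, log axis) of acetylcholine genes, nicotinic subunits and Gpr151 (upper panel) and of transcription factors (lower panel) in the 6 IP libraries (symbols) and the input (black bar). Chrna3 and Chrnb4 lie above the input in every IP library, Chrna4 and Tcf7l2 lie at its level, and Prox1 and Rorb lie below it with library 1091 highest.

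Of 15 listed chaperones and Ly6-family modulators of nicotinic receptors 10 passed the filter, with 0 enriched and 3 depleted. In so few genes 0 enriched is near the background share of 5.87%, and in libraries 682 and 852 alone 1 was enriched. The chaperone Ric3 had 111 CPM in the input and 98.5 to 146 CPM (median 119) in the IP libraries, which spans the input. Lynx1, a membrane-tethered modulator of nicotinic receptors, had 678 CPM in the input and 238 to 418 CPM (median 342) in the IP libraries, below the input in all 6 libraries but within 2-fold in part of them. Its relatives Lypd6, Lypd6b and Lypd1 were depleted at -1.55, -2.44 and -2.79, the last with 17.1% overlap.

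Most transcription factors of the habenula were enriched. Of 22 listed factors 18 passed the filter, with 14 enriched, 1 depleted and 3 neither, and the median ratio was 2.33 (library medians 2.20 to 2.54). Pou4f1, a POU factor needed for habenular differentiation, had 44.7 CPM in the input and 283 to 385 CPM (median 347) in the IP libraries. Nr4a2, an orphan nuclear receptor, had 140.4 CPM in the input and 1162 to 1438 CPM (median 1311) in the IP libraries. Nhlh1 and Nhlh2, related helix-loop-helix factors, had ratios of 3.63 (range 2.91 to 4.02) and 2.34 (range 2.10 to 2.53). All 5 Iroquois homeobox genes past the filter were enriched, Irx1 at 3.40, Irx2 at 2.95, Irx5 at 2.88, Irx6 at 2.80 and Irx3 at 2.09. Irx6 and Irx3 were under 1 CPM in the input and passed the filter only through the IP libraries. Their calls therefore add little to the count of this family. Further enriched factors were Neurod1 at 2.98 with 13% overlap, Ebf1 at 2.32, Etv1 at 1.96, Ebf3 at 1.74 and Lmo3 at 1.65. For Pou4f1, Nr4a2 and Etv1 library 1091 lay inside the range of the other 5.

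Tcf7l2, the Wnt effector that is abundant in habenula and thalamus alike, had 1530.4 CPM in the input and 1152 to 1686 CPM (median 1506) in the IP libraries, on both sides of the input. Prox1 was the depleted member, with 444 CPM in the input and 49.4 to 168 CPM (median 85) in the IP libraries and library 1091 highest. Per kilobase Nr4a2 led the list at 317 ± 26.2 CPM (SD, n = 6), followed by Tcf7l2 at 167 ± 21.2, and their library ranges did not overlap. Factors of other forebrain neurons were split, with 4 of 10 depleted and 1 enriched. Depleted were Rorb (-2.97, range -3.70 to -1.26), Six3 (-2.74, range -3.63 to -1.63), Cux2 (-2.11, range -2.59 to -1.90) and Gbx2 (-3.40, range -5.21 to -1.27, with 43.5% overlap). The enriched one was Neurod2, best known from cortical and hippocampal neurons, at 6.77 CPM in the input and 54.3 to 134 CPM (median 106) in the IP libraries.

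Other transcripts known from the habenula gave 13 enriched and 1 depleted of 20 past the filter, with a median ratio of 2.79. Synpr, the vesicle protein synaptoporin, had 62.7 CPM in the input and 841 to 2098 CPM (median 1022) in the IP libraries. Lrrc55, an auxiliary subunit of BK potassium channels, had 201 CPM in the input and 1893 to 3205 CPM (median 2066) in the IP libraries. Gng8, a G protein gamma subunit, had 51.7 CPM in the input and 180.4 to 1169 CPM (median 527) in the IP libraries and a wide spread, with library 1091 lowest and library 682 highest. Nwd2, at 11.7% overlap, had 261 CPM in the input and 1619.6 to 3083 CPM (median 2898) in the IP libraries. Pde2a reached 3.75 but has 64.3% of its exon bases overlapped. Calb1, calbindin, was the depleted member at -2.14 (range -2.20 to -1.31). Spon1 and Wif1, also in that list, had ratios of -0.82 (range -1.02 to -0.25) and 0.90 (range 0.61 to 1.12) and were not called.

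Of 11 genes of glutamate transport and synthesis 1 was enriched (9.09%, against 5.87% of all genes) and 1 depleted (9.09%, against 8.85%). Both shares lie near those of all genes, and 4 were depleted without library 1091. Slc17a7, the vesicular glutamate transporter VGLUT1, had 75.3 CPM in the input and 456 to 954 CPM (median 638) in the IP libraries, above the input in every library. Slc17a6, VGLUT2, had 525 CPM in the input and 302 to 667 CPM (median 361) in the IP libraries and was above the input only in the highest of the 6. Per kilobase their IP levels were 129 ± 34.9 and 76.3 ± 25.5 CPM (SD, n = 6) with overlapping library ranges, against 14.0 and 97.2 CPM per kilobase in the input. The input thus held more VGLUT2 than VGLUT1 transcript, and the IP libraries had both at levels that are not ordered beyond their spread. Glul, the glutamine synthetase of astrocytes, was depleted at -1.92 (range -2.57 to -1.44). Among 6 monoamine genes past the filter Th, tyrosine hydroxylase, and Slc18a2, the vesicular monoamine transporter, were enriched at 1.83 (range 1.52 to 2.20) and 1.79 (range 1.43 to 2.36). Ddc, which completes catecholamine and serotonin synthesis, was depleted at -1.59 (range -2.06 to -1.21). Th was low in level, at 11 to 18.2 CPM in the IP libraries.

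Neuropeptide precursors had a larger depleted share than all genes. Of 56 listed 17 passed the filter (median -2.35). Enriched were 3 (17.6%, against 5.87% of all genes) and depleted 8 (47.1%, against 8.85%). With library totals, DESeq2 size factors or a pseudocount of 5 CPM, 2 were enriched. Tac2, the neurokinin B precursor, had 91.4 CPM in the input and 495 to 883 CPM (median 793) in the IP libraries. Tac1, the substance P precursor of dorsal medial habenula, had 23.1 CPM in the input and 47.9 to 88 CPM (median 61.1) in the IP libraries, a modest ratio of 1.36 (range 1.02 to 1.88). Nppa, the atrial natriuretic peptide precursor, had 2.55 CPM in the input and 85 to 227 CPM (median 136) in the IP libraries, with 61.5% overlap. It passed the filter only through the IP libraries and overlaps a gene listed in the input's table but in no IP table. Depleted precursors included Penk at -2.45 (14.3% overlap), Pnoc at -3.31, Gal at -2.46, Calca at -2.58, Nppc at -2.35, Apln at -3.38, Igf1 at -3.37 and Igf2 at -3.06 (64.5% overlap). Cck had 401 CPM in the input and 111 to 214 CPM (median 132) in the IP libraries, below the input in all 6 libraries, yet not past the required ratio in every one. Peptide processing gave 4 enriched and 1 depleted of 21, and 2 enriched with library totals. Enriched were Mme, the peptidase neprilysin (2.27), the amidating enzyme Pam (1.89), the granin Scg3 (1.22) and the convertase Pcsk1 (1.20). Cst3, a protease inhibitor, was the depleted one at -1.67.

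Receptors for amines and peptides were split within each family. Of 17 amine and muscarinic receptors past the filter 4 were enriched and 7 depleted, and 4 depleted with a pseudocount of 5 CPM. Htr5b, a serotonin receptor, had 19.7 CPM in the input and 256 to 437 CPM (median 366) in the IP libraries. Its relative Htr5a had 23.5 CPM in the input and 118 to 166 CPM (median 132) in the IP libraries, and Htr4, coupled to cyclic AMP production, a ratio of 2.24 (range 1.56 to 2.59). Chrm1 was enriched at 2.04 (range 1.55 to 2.39) while another muscarinic receptor, Chrm2, was depleted at -2.90 (range -3.27 to -1.88). Depleted with it were Adra1b (-3.10), Adra2b (-2.41), Drd1 (-2.42), Hrh3 (-2.14, 11.1% overlap), Htr7 (-1.82) and Hrh2 (-1.74). Per kilobase Htr5b stood at 187 ± 33.6 CPM (SD, n = 6) and Htr5a, next in order, at 25.3 ± 3.1, with no overlap of their library ranges.

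Among 26 neuropeptide receptors past the filter 6 were enriched and 12 depleted. Sstr4, a somatostatin receptor, had 3.1 CPM in the input and 24.1 to 64 CPM (median 52.4) in the IP libraries. Sstr2, of the same family, had 11.2 CPM in the input and 65.9 to 96.1 CPM (median 72.8) in the IP libraries. Tacr1, the substance P receptor, had 21.5 CPM in the input and 142 to 209 CPM (median 169) in the IP libraries. Npr1, the guanylate cyclase that binds natriuretic peptides, had 3.45 CPM in the input and 30.2 to 75 CPM (median 50.1) in the IP libraries, with 11.7% overlap. Calcrl, the partner subunit of CGRP and adrenomedullin receptors, was enriched at 1.89 (range 1.51 to 2.32) and Rxfp2, a relaxin-family receptor, at 1.77 (range 1.63 to 2.61). Of the RAMP proteins, which pair with Calcrl, Ramp1 was depleted at -3.04 (range -3.30 to -2.68) and Ramp3 at -3.78 (range -4.52 to -3.41), and Ramp2 did not pass the level filter. Other depleted receptors were Ntsr2 (-3.58), Rxfp1 (-3.30), Npsr1 (-3.0), Ednrb (-2.99), Vipr2 (-2.78), Adcyap1r1 (-2.40), Mc3r (-2.37), Sstr3 (-2.11) and Npy1r (-1.87). Somatostatin receptors thus had 2 members enriched and 1 depleted. Per kilobase Sstr2, Sstr4 and Tacr1 led with 36.8 ± 6.39, 34.7 ± 9.57 and 26.2 ± 3.6 CPM (SD, n = 6), and neighbours among these 3 overlapped.

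Of 5 opioid peptide and receptor genes past the filter 0 were enriched and 3 depleted. In so few genes 0 enriched is near the background share of 5.87%. Oprm1, the mu receptor, had 86.6 CPM in the input and 77.5 to 130.4 CPM (median 108) in the IP libraries, and Oprl1, the nociceptin receptor, had 38.5 CPM in the input and 48.3 to 70 CPM (median 58.4) in the IP libraries. Oprk1, the kappa receptor, was depleted at -2.61 (range -3.12 to -1.12), with library 1091 highest. Among 42 orphan and numbered receptors past the filter 4 were enriched (9.52%, against 5.87% of all genes), or 2 with a pseudocount of 5 CPM. Depleted were 11 (26.2%, against 8.85%). The enriched receptors included Gpr151 (2.95, range 2.71 to 3.39), Gpr139 (2.07, range 1.93 to 2.52) and Gpr4 (1.88, range 1.01 to 2.15). Per kilobase Gpr151 stood at 276 ± 58.3 CPM in the IP and Gpr139 at 7.84 ± 1.26 CPM (SD, n = 6). Gpr37l1 and Gpr37, receptors of astrocytes and oligodendrocytes, were depleted at -3.70 and -3.18. The cannabinoid receptor Cnr1 had 63.6 CPM in the input and 98.2 to 162 CPM (median 113) in the IP libraries. None of the 9 endocannabinoid genes past the filter was called, which in so few genes is near the shares of all genes. Of 16 purinergic genes 0 were enriched, again near the share of all genes. Depleted were 4 (25%, against 8.85% of all genes), or 1 with a pseudocount of 5 CPM. Among them was Adora1, the A1 adenosine receptor, at -2.52 (range -3.52 to -1.02), with 20.1% overlap.

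**Figure D4:**
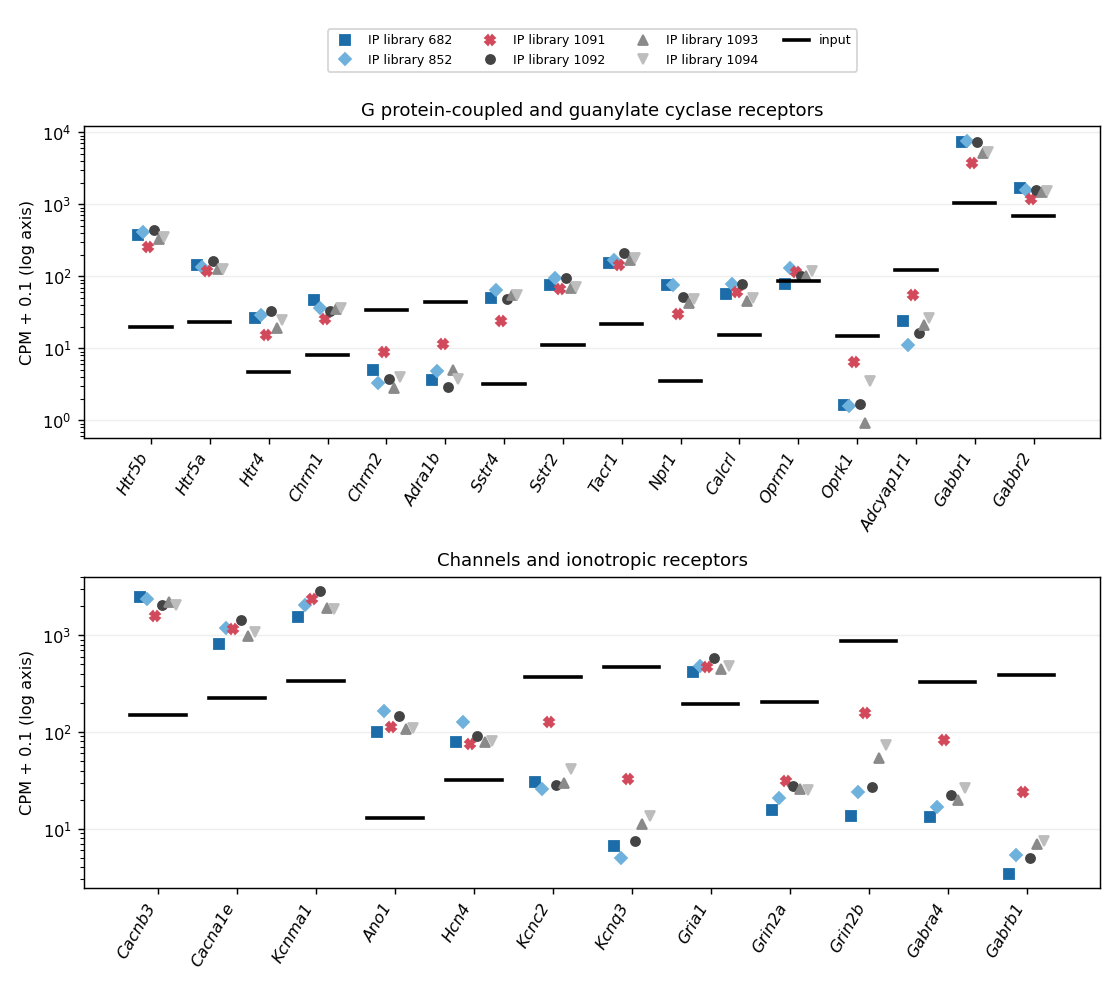
CPM (0.1 added, log axis) of receptors (upper panel) and of channels and ionotropic receptors (lower panel) in the 6 IP libraries (symbols) and the input (black bar). Htr5b, Sstr4, Gabbr1 and Cacnb3 lie above the input in every IP library, and Kcnq3, Grin2b and Gabrb1 lie below it in every one, with library 1091 nearest to it.

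GABA-B receptors, obligate pairs of Gabbr1 and Gabbr2 that bind KCTD proteins and can open GIRK potassium channels, were unevenly represented. Of 10 genes past the filter 4 were enriched and none depleted. Gabbr1 had 1054 CPM in the input and 3762 to 7661 CPM (median 6324) in the IP libraries, above the input in every library. Gabbr2 had 687 CPM in the input and 1179.5 to 1708 CPM (median 1541) in the IP libraries, above the input in all 6 libraries but not by 2 times in each. Kctd8 and Kctd12b were enriched at 2.90 (range 2.59 to 3.19) and 2.69 (range 2.24 to 3.43), and Kctd12 at 1.67 (range 1.36 to 2.07) with 64.2% overlap. Kctd16 went the other way at -1.78 (range -2.84 to -0.85) without being called, on IP levels of 0.274 to 4.08 CPM and with 10.3% overlap. None of the 4 GIRK subunits was called: ratios were 0.26 for Kcnj6, -0.97 for Kcnj9, -1.20 for Kcnj5 and -1.84 for Kcnj3. Kcnj3 lay at 16.6 to 51.6 CPM in the IP against 66.1 CPM in the input, with 31.1% overlap. Without library 1091, 5 members were enriched and 2 depleted. Per kilobase Gabbr1 was at 786 ± 203 CPM and Gabbr2 at 225 ± 26.6 CPM (SD, n = 6), with no overlap of library ranges. The corresponding input levels were 136 and 103 CPM per kilobase.

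GABA-A and glycine receptor subunits, which form the chloride channels of fast inhibition, had a low median ratio in the IP. Of 17 past the filter 0 were enriched and 7 depleted, with a median of -2.46, and without library 1091 the depleted count was 12. Gabrb1 had 393 CPM in the input and 3.31 to 23.9 CPM (median 5.99) in the IP libraries, and is among the 20 most depleted genes. Gabra4 was depleted at -3.90 (range -4.56 to -1.98), Gabrg3 at -3.84 (range -4.60 to -1.80), Gabra3 at -3.33 (range -4.32 to -2.0), Glra2 at -3.33 (range -3.66 to -1.71), Gabrd at -3.04 (range -3.80 to -2.24) and Gabra5 at -2.46 (range -2.92 to -1.17). Of 14 genes of the inhibitory postsynapse and chloride transport past the filter 2 were enriched (14.3%, against 5.87% of all genes). They were Mdga1 (1.99, range 1.63 to 2.15) and Lhfpl4 (1.88, range 1.29 to 2.18). Depleted were 0, which in so few genes is near the 8.85% of all genes.

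Glutamate receptors showed 2 enriched and 7 depleted of 25, with 14 depleted without library 1091 and 4 with a pseudocount of 5 CPM. Gria1, an AMPA receptor subunit, had 197 CPM in the input and 416 to 576 CPM (median 476) in the IP libraries. Grin2b, an NMDA receptor subunit, had 869 CPM in the input and 13.3 to 157 CPM (median 40.4) in the IP libraries, with library 1091 highest. Grin2a was depleted at -2.98 (range -3.64 to -2.69), Grin2d at -2.55 (range -3.30 to -1.14) and Grin2c at -2.07 (range -3.09 to -1.49), so all 4 GluN2 genes were depleted. Grin3a, by contrast, had 132 CPM in the input and 169 to 237 CPM (median 184) in the IP libraries, above the input in every library but under the required ratio. Grin3b was called enriched on IP levels of 3.41 to 14.3 CPM, with 32.1% overlap. Metabotropic Grm4 was depleted at -2.32 (range -2.88 to -1.37). Among auxiliary and scaffold genes 4 of 34 were enriched (11.8%, against 5.87% of all genes) and 4 depleted (11.8%, against 8.85%), and 7 depleted with library totals. Enriched were the secreted pentraxins Nptx1 (2.88, range 2.31 to 3.19) and Nptx2 (2.51, range 1.67 to 2.87) and the PDZ proteins Grip1 (1.62, range 1.51 to 1.87) and Grip2 (1.91, range 1.57 to 2.03). Nptxr, the membrane-bound pentraxin, was depleted at -6.98 (range -7.23 to -5.86) with 17.2% overlap, and the TARP subunits Cacng2, Cacng3 and Cacng4 at -4.38, -2.75 and -2.06.

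Calcium channel genes had 3 enriched and 1 depleted of 16, with 6 depleted without library 1091 and 3 with library totals. Cacnb3, a cytoplasmic beta subunit, had 149 CPM in the input and 1600.5 to 2491 CPM (median 2149.7) in the IP libraries. Cacna1e, the pore of R-type channels, had 227 CPM in the input and 816 to 1454 CPM (median 1120.2) in the IP libraries. Cacna2d2, an alpha2delta subunit, was enriched at 2.16 (range 1.88 to 2.28). The N-type pore Cacna1b had 109 CPM in the input and 14.9 to 68.9 CPM (median 19.9) in the IP libraries, and the subunit Cacna2d1 a ratio of -2.91 (range -3.45 to -0.65). Neither was called, and library 1091 was the highest IP library for both. Cacna2d4 was the depleted gene at -2.15 (range -2.53 to -1.81). Per kilobase 5 of the 8 pores past the filter stood in the IP at 44.2 ± 8.49 CPM for Cacna1e, 6.93 ± 1.62 for Cacna1c, 5.68 ± 0.441 for Cacna1d, 2.82 ± 2.09 for Cacna1b and 1.72 ± 1.34 for Cacna1a (SD, n = 6). The other 3 had means of 0.171 to 2.94 CPM, and the lowest library of Cacna1e lay above the highest of the other 7 pores.

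Pacemaker channels gave 1 enriched of 8 (12.5%, against 5.87% of all genes), which in so few genes is near that share. It was Hcn4, with 32.1 CPM in the input and 76 to 126 CPM (median 79.3) in the IP libraries. The sodium leak channel Nalcn had 92.6 CPM in the input and 139 to 223 CPM (median 159.6) in the IP libraries, above the input in all 6 libraries but not by 2 times in each. Voltage-gated sodium channel genes gave 0 enriched (against 5.87% of all genes) and 1 depleted of 13 (7.69%, against 8.85%). The depleted one was the beta subunit Scn4b at -3.29 (range -3.68 to -2.62). Potassium channel genes gave 6 enriched and 14 depleted of 56, with 24 depleted without library 1091 and 6 with a pseudocount of 5 CPM. Kcnip1, which modifies A-type channels, had 95 CPM in the input and 937 to 1278 CPM (median 1081) in the IP libraries. Kcng4, a silent subunit that forms no channel alone, had a ratio of 2.97 (range 2.70 to 3.16). Kcnma1, the BK channel, had 339 CPM in the input and 1561 to 2863 CPM (median 1987) in the IP libraries. Kcnd2, an A-type pore, and Kcnh8 were enriched at 1.63 (range 1.29 to 2.11) and 2.32 (range 2.05 to 2.62).

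Of 3 KCNQ genes past the filter, whose channels carry M-type currents, 1 was depleted. It was Kcnq3, with 466 CPM in the input and 4.87 to 33 CPM (median 9.25) in the IP libraries, the lowest ratio among the potassium channel genes. Of 4 Kv3 genes past the filter 2 were depleted, namely Kcnc2 and Kcnc1, at -3.60 (range -3.80 to -1.57) and -2.78 (range -3.33 to -1.40). Kcnip4 was at -3.13 (range -3.47 to -1.89) although its relative Kcnip1 was enriched, and the glial channel Kcnj10 at -3.15 (range -4.06 to -1.02). Other channel families were mixed, with 8 enriched and 3 depleted of 27, and 6 depleted without library 1091 or 5 with library totals. Ano1, a calcium-activated chloride channel, had 12.7 CPM in the input and 101 to 167 CPM (median 112) in the IP libraries. Ano3 (2.54, range 2.17 to 3.06), Trpc4 (2.29, range 2.13 to 2.70), Trpm1 (2.58, range 2.35 to 3.03), Piezo2 (2.0, range 1.94 to 2.25), Trpm3 (1.80, range 1.28 to 2.07), Asic1 (1.78, range 1.32 to 1.97) and Asic4 (2.32, range 1.42 to 2.65, 18.1% overlap) were also enriched. Clcn5 (-1.69, range -1.97 to -1.16) and Ano5 (-1.17, range -1.77 to -1.05) were among the depleted ones.

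Signalling genes downstream of these receptors were as divided. Of 24 heterotrimeric G protein genes 4 were enriched and 7 depleted. Gng8 and Gnb5, the beta subunit that pairs with RGS proteins, were enriched with little overlap, Gnb5 at 2.37 (range 1.93 to 2.73). Gng10 (72% overlap) and Gnas were the other 2. Depleted were the gamma subunits Gng11 (-3.53), Gng4 (-3.48), Gng12 (-2.77), Gng2 (-1.93, 20.4% overlap) and Gng5 (-1.63) and the alpha subunits Gnai1 (-2.57) and Gna12 (-1.39, 13.3% overlap). Gnao1, the abundant neuronal alpha subunit, had 1513 CPM in the input and 2736 to 3100.0 CPM (median 2854) in the IP libraries. Rgs6 and Rgs9, which bind Gnb5, were enriched at 2.26 (range 1.16 to 2.56) and 1.27 (range 1.11 to 1.90), whereas Rgs7 and its binding protein Rgs7bp were depleted at -1.78 (range -2.03 to -1.17) and -2.58 (range -2.88 to -1.57). With library totals in place of TMM neither Rgs gene was called enriched.

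Cyclic AMP genes gave 6 enriched and 12 depleted of 49. Pde1a, a calcium-activated phosphodiesterase, had 100.1 CPM in the input and 577 to 936 CPM (median 752) in the IP libraries. Prkar2a, a regulatory subunit of protein kinase A, had 196 CPM in the input and 1004 to 1496 CPM (median 1257) in the IP libraries, and Prkar2b a ratio of 1.11 (range 1.01 to 1.25). Rapgef4, the exchange factor Epac2, was enriched at 1.89 (range 1.75 to 2.38) and Adcy9, an adenylyl cyclase, at 1.32 (range 1.04 to 1.69). Other cyclases were depleted, Adcy5 at -2.72, Adcy1 at -2.40 and Adcy7 at -2.22. Calcium-dependent kinases and phosphatases gave 4 enriched and 4 depleted of 31, and 11 depleted without library 1091. Prkcq, a protein kinase C isoform, had 55.3 CPM in the input and 588 to 855 CPM (median 701) in the IP libraries. Prkcb, a conventional isoform, had 166 CPM in the input and 1201 to 2133 CPM (median 1673) in the IP libraries. Ppp1r1b, the phosphatase inhibitor DARPP-32, was enriched at 2.86 (range 2.18 to 3.11) with 15.7% overlap and Dclk1 at 1.80 (range 1.5 to 2.16). Camk2n1, an inhibitor of CaM kinase II, was depleted at -1.82 (range -2.11 to -1.70).

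Calcium-binding proteins had 4 enriched and 8 depleted of 23. Necab3 had 167 CPM in the input and 1497 to 2663 CPM (median 2182) in the IP libraries. Its relative Necab2 had 189 CPM in the input and 1021 to 1984 CPM (median 1778) in the IP libraries. Nrgn, neurogranin, had 36.9 CPM in the input and 162 to 655 CPM (median 364) in the IP libraries, and Cabp1 a ratio of 2.5 (range 1.60 to 3.11). Pvalb, parvalbumin, was depleted at -4.41 (range -5.08 to -3.45), and Vsnl1, visinin-like 1, had 1988 CPM in the input and 98.5 to 468 CPM (median 154) in the IP libraries. Pcp4 ran from 309 to 4960.5 CPM between IP libraries around an input of 784 CPM, with 23.7% overlap, and was not called. Tesc, tescalcin, stood among the 20 most enriched genes with at most 10% overlap at 3.65 (range 2.48 to 3.96).

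Vesicle and release genes were found on both sides of the input. Of 87 past the filter 11 were enriched (12.6%, against 5.87% of all genes), 10 depleted (11.5%, against 8.85%) and 66 neither. Their median was 0.13 against 0.12 for all genes, and with library totals -0.086 against -0.070. Among synaptotagmins, Syt15 had 14.9 CPM in the input and 229 to 297 CPM (median 281) in the IP libraries. Syt9, a calcium sensor, had 235 CPM in the input and 1431 to 2317 CPM (median 1926) in the IP libraries. Syt6 was enriched at 2.86 (range 2.46 to 3.08). No IP library of these 3 overlapped the input. Cadps2, a priming factor of dense-core vesicles, had 145 CPM in the input and 1002 to 1323 CPM (median 1180.1) in the IP libraries. Stxbp5l, tomosyn-2, was enriched at 2.83 (range 1.95 to 3.38), Syn3, synapsin III, at 3.29 (range 2.63 to 3.76) with 14.1% overlap, Cplx1, complexin 1, at 1.85 (range 1.26 to 2.32) and Sv2b at 1.30 (range 1.16 to 1.63). Rims3 was the most depleted, at 342 CPM in the input and 9.2 to 20.2 CPM (median 9.86) in the IP libraries. Stxbp6 (-3.87, range -4.09 to -1.98), Rims4 (-3.10, range -3.63 to -2.67) and Rab3c (-2.64, range -3.25 to -1.02) were depleted as well. The core fusion protein Snap25 had 9817 CPM in the input and 6792 to 10673 CPM (median 8858) in the IP libraries, on both sides of the input, and Vamp2 had 1873 CPM in the input and 2093 to 3990.2 CPM (median 2612) in the IP libraries, above it in every library but within 2-fold in 5 of 6.

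Of 58 guidance genes 9 were enriched (15.5%, against 5.87% of all genes) and 4 depleted (6.90%, against 8.85%), and 11 depleted without library 1091. Gfra1, the GDNF co-receptor from the neurotrophic list, had 63.8 CPM in the input and 663 to 980.3 CPM (median 834) in the IP libraries. Nrp2, a semaphorin receptor, had 117 CPM in the input and 478 to 777 CPM (median 599.9) in the IP libraries, and Plxnc1, a plexin, had 161 CPM in the input and 584 to 829.9 CPM (median 616) in the IP libraries. Robo3 and Robo1, which bind Slit proteins, were enriched at 2.54 (range 1.98 to 2.73) and 1.36 (range 1.02 to 1.46), and so was the ligand Slit2 at 2.12 (range 1.61 to 2.44). Sema3e (2.48, range 2.17 to 3.07), Sema5a (1.66, range 1.13 to 2.21), Rgmb (1.95, range 1.58 to 2.21) and Epha8 (1.95, range 1.01 to 2.21) completed the set. Among 67 synaptic adhesion genes 4 were enriched (5.97%, against 5.87% of all genes) and 7 depleted (10.4%, against 8.85%). Both shares lie near those of all genes. Depleted were 16 without library 1091 and 4 with a pseudocount of 5 CPM. Elfn1, a trans-synaptic organiser, had 46.9 CPM in the input and 233 to 408 CPM (median 367) in the IP libraries, while Lrrc4c (1.66, range 1.38 to 2.09), Cbln4 (1.41, range 1.26 to 2.03) and Cbln2 (1.31, range 1.06 to 1.43) were the other 3. Nrxn3 was depleted at -2.99 (range -3.45 to -1.11) with library 1091 highest. Cadherins gave 3 enriched (12.5%) and 2 depleted (8.33%) of 24, and 12 depleted without library 1091. The enriched ones were Cdh3 (3.46, range 2.69 to 3.59), Cdh22 (2.49, range 1.69 to 3.08) and Cdh8 (1.45, range 1.09 to 1.68).

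Few genes of general cell function were called. None of 78 nuclear-encoded oxidative phosphorylation genes and none of 33 heat shock and unfolded protein genes was called, while without library 1091 4 oxidative phosphorylation genes were enriched. Oxidative phosphorylation had a median of 0.50, with library medians of -0.39 in library 1091 and 0.42 to 0.89 in the other 5. The ratio was above 0 for 69 of these 78 genes, against 6330 of all 11309 genes, and the lowest was -3.74. Of 62 ribosomal protein genes 1 was enriched and 2 depleted, with library medians of -1.16 in library 1091 and -0.27 to 0.15 in the others. The called ones were Rps6 (2.54), Rpl9 (-1.74) and Rpl26 (-5.38). Near-identical copies of these genes exist in the genome, so their counts are to be read with caution. Whether reads shared with copies set these ratios was not tested. Of 59 translation factors Eif4e3 was enriched (1.76, 14.8% overlap) and Eif1ax depleted (-2.49). None of 48 cytoskeleton genes was enriched, and Stmn1 (-3.82) and Stmn4 (-1.88) were depleted. Mitochondrially encoded genes were not among the shared symbols and were not analysed here. Eno1 (-6.05, range -6.47 to -5.80) and Ubb (-4.63, range -5.34 to -4.32), among the 20 most depleted genes, also have near-identical copies. The part of these copies in the ratios was not tested.

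Activity-regulated genes had a larger depleted share than all genes. Of 21 immediate early genes past the filter 2 were enriched (9.52%, against 5.87% of all genes), Nptx2 and the kinase Sik1 (1.84, range 1.36 to 1.95). Depleted were 6 (28.6%, against 8.85% of all genes). Fos had 47.2 CPM in the input and 6.03 to 20 CPM (median 12.3) in the IP libraries. Jun, its partner in AP-1, had 33.9 CPM in the input and 4.38 to 15 CPM (median 8.38) in the IP libraries. Both were below the input in all 6 libraries. Egr1 had 271 CPM in the input and 62.1 to 173 CPM (median 142) in the IP libraries, below the input in every library but within 2-fold in some. Clock genes gave 0 enriched and 4 depleted of 19, with Hlf at -2.54 (range -2.86 to -1.69), and nuclear hormone receptors 1 enriched, Rara (1.81, range 1.49 to 1.94), and 6 depleted of 21, or 11 without library 1091. Nr3c1, the glucocorticoid receptor, was depleted at -2.51 (range -3.33 to -1.07).

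The listed long noncoding RNAs were mostly lower in the IP than in the input, and their place in the cell was not measured. Of 23 long noncoding RNAs past the filter 13 were depleted and 1 enriched, and their summed level was 12831 CPM in the input and 1174 to 3073 CPM in the IP libraries. Malat1 had 6596 CPM in the input and 266 to 1305 CPM (median 326) in the IP libraries. Meg3, an imprinted RNA, had 3169 CPM in the input and 127 to 808 CPM (median 225) in the IP libraries, and Snhg11 had 1567 CPM in the input and 85.8 to 248 CPM (median 103) in the IP libraries. Neat1, the scaffold of paraspeckles, was at -4.58 (range -6.44 to -3.25). Library 1091 had the highest level of each of these 4. The enriched one was Snhg3, with 86.3% of its exon bases overlapped. Peg13 was an exception at 313 CPM in the input and 456 to 607 CPM (median 513) in the IP libraries, above the input in every library. Among 30 imprinted genes past the filter 9 were depleted (5 with a pseudocount of 5 CPM) and 1 enriched, the last being Gnas. Snrpn was the most depleted gene of all, with 657 CPM in the input and 1.83 to 4.6 CPM (median 2.53) in the IP libraries, but 34.1% of its exon bases are overlapped, among others by Snurf, which was at 0 counts in the input and ran from 0 to 122 CPM between IP libraries. Nap1l5, an imprinted gene without that overlap, was depleted at -2.74 (range -3.10 to -1.89).

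Most markers of glia and of GABAergic neurons were lower in the IP than in the homogenate. Of 16 oligodendrocyte markers 13 were depleted and 0 enriched, with a summed level of 3166 CPM in the input and 194 to 929 CPM in the IP libraries. Mobp, a myelin protein, had 401 CPM in the input and 18.5 to 41 CPM (median 28.4) in the IP libraries. Of 17 astrocyte markers 10 were depleted and 0 enriched, and their sum was 2940 CPM in the input and 817 to 1817 CPM in the IP libraries. Aqp4, the water channel, had 87.7 CPM in the input and 3.94 to 42 CPM (median 7.7) in the IP libraries. Of 7 microglia markers 5 were depleted, on input levels of up to 9.59 CPM (P2ry12, a purinergic receptor), and with a pseudocount of 5 CPM none was. Of 6 GABAergic markers 5 were depleted, Gad2 with 459 CPM in the input and 12.4 to 139 CPM (median 37.7) in the IP libraries, and the sum was 701 CPM in the input and 25.9 to 199 CPM in the IP libraries. None of the defining markers of these 4 cell types was at 0 in any IP library, and the median of each list was highest in library 1091. Their part in the values of single genes was not tested.

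Most vascular markers were low in the input and the IP. Of 16 listed 4 passed the filter, with a median of 0.22, 1 enriched and 0 depleted. It was Esam, an endothelial adhesion molecule, with 1.05 CPM in the input and 4.86 to 11.8 CPM (median 8.18) in the IP libraries. Pecam1, a defining endothelial marker, had 1.85 CPM in the input and 3.36 to 7.28 CPM (median 6) in the IP libraries, above the input in all 6 libraries but not by 2 times in each. Cldn5, another one, was at 0.284 CPM in the input and at 0 in 1 IP library. Esam and Pecam1 passed the filter only through the IP libraries. This favours ratios above the input for them, so the enriched call and the list median carry little weight. Choroid plexus and ependymal genes gave 5 depleted and 2 enriched of 8. Ttr, transthyretin, had 12.3 CPM in the input and 0.0405 to 0.871 CPM (median 0.536) in the IP libraries. The enriched ones were Sostdc1, a BMP and Wnt antagonist, with 6.95 CPM in the input and 45.4 to 80.9 CPM (median 66.1) in the IP libraries, and the homeobox gene Otx2, with 26.8 CPM in the input and 79.1 to 92.1 CPM (median 86.6) in the IP libraries.

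Markers of neighbouring neurons were lower in part. Of 20 lateral habenula and thalamic markers 5 were depleted and 1, Cplx1, enriched, with 12 depleted both without library 1091 and with library totals in place of TMM. Gap43 had 517 CPM in the input and 26.5 to 93.7 CPM (median 38.6) in the IP libraries, Synpo2 had 322 CPM in the input and 15.9 to 157 CPM (median 36.3) in the IP libraries and Tnnt1 had 51.3 CPM in the input and 0.73 to 6.03 CPM (median 5.07) in the IP libraries. Of 13 hippocampal and cortical markers 4 were depleted and 3 enriched, and 7 were depleted without library 1091. The 3 were Neurod2, Nrgn and Slc17a7, and the depleted ones included Zbtb20 (-3.60, range -4.41 to -2.67) and Cux2. Camk2a, a kinase of cortical excitatory neurons, had 502 CPM in the input and 76.5 to 454 CPM (median 131) in the IP libraries and was not called.

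**Figure D5:**
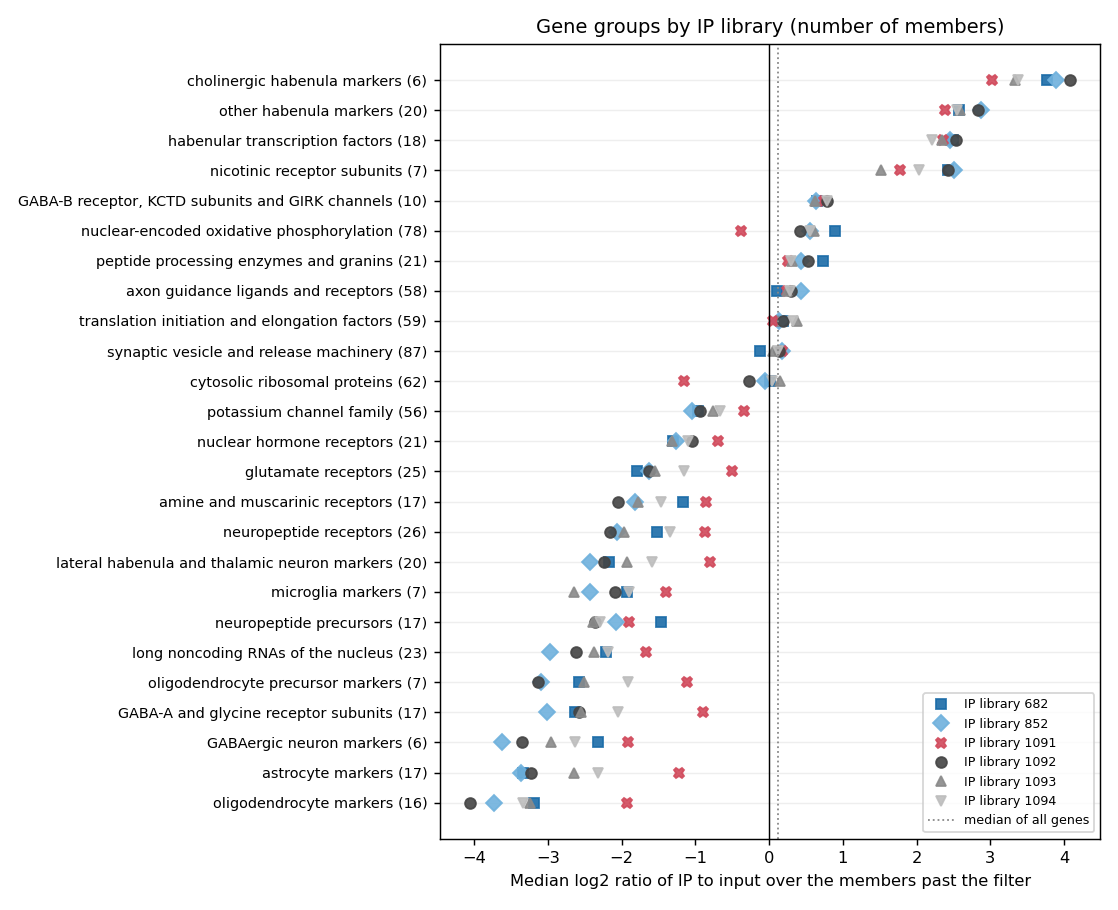
Median log2 ratio of IP to input over the members of 25 gene lists, with 1 symbol for each of the 6 IP libraries and the number of members past the filter in brackets; the dotted line is the median of all genes. The cholinergic markers, nicotinic subunits, habenular transcription factors and other habenula markers lie between 1.51 and 4.08 in every library, lists of glia and GABAergic neurons lie below -1, and library 1091 (red cross) is nearest to 0 in the latter.

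Outside the lists, the 20 most enriched genes with at most 10% overlap, a set chosen after the data were seen, included genes of none of these families, such as Nfam1, an immune receptor adaptor, with 11.4 CPM in the input and 115 to 332 CPM (median 229) in the IP libraries, and Tspan18, a tetraspanin, with 42.3 CPM in the input and 545 to 802 CPM (median 645) in the IP libraries. Hhip, an inhibitor of hedgehog ligands, had 17.7 CPM in the input and 184 to 378 CPM (median 238) in the IP libraries, and Ccdc155 had 5.74 CPM in the input and 50.4 to 107 CPM (median 97.9) in the IP libraries. Among the 20 most depleted genes by the rule were, besides those already given, Fam107a with 388 CPM in the input and 12.1 to 34.6 CPM (median 15.7) in the IP libraries, Mlip with 123 CPM in the input and 1.24 to 6.55 CPM (median 3.14) in the IP libraries and Caln1 with 51.5 CPM in the input and 0.596 to 1.78 CPM (median 0.93) in the IP libraries. Pter (-5.03), Tonsl (-4.65) and Fads6 (-4.48) had at most 10% overlap, whereas Sh3bp1 (64.5%) and Fdx1l (72.7%) had more. In the 9544 genes with at most 10% overlap the ratio also fell with exon length, from a median of 0.30 in 848 genes of up to 2000 bases to -0.12 in 2198 genes of over 8000 bases. Enriched shares in these classes were 4.60% and 3.87%, and depleted shares 11.6% and 8.55%.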

How the data were processed

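Habenula RNA of 6 IP libraries and 1 input library was analysed as the gene counts that the authors deposited. The submitters' processing notes name HTSeq, DESeq2, STAR 2.3.0e and the mm10 build. No source used here states the gene annotation or whether counting used strand, so a gene and its antisense partner cannot be told apart. Rows that name no gene were left out of library sizes; reads in no feature were 9.44% to 13.2% of a table's total, ambiguous reads 0.612% to 3.98% and reads with no unique alignment 25.2% to 53.2%. Counts of the 22682 shared symbols were scaled by TMM (edgeR 4.0.16 in R 4.3.3; factors 0.934 to 1.12) and turned into CPM, with 1 CPM added before log2. Exon overlap and length came from GENCODE M21, matched by symbol for 22101 symbols, and promoters from RefSeq GRCm38.p6. The scripts were tested on simulated data. Alternatives used edgeR, DESeq2 1.42.0, other scalings, pseudocounts, filters, cutoffs and subsets of libraries. Members and gene lists were chosen with earlier results of these data known. Named were the label's markers, the 20 highest and 20 lowest median ratios among called genes, any member of a list with up to 12 members, and otherwise a list's 5 highest, 5 lowest and 5 highest per kilobase; 51 named genes fall outside this rule and were chosen after their values were seen. Some genes that the rule covers are not reported here. The labels do not say that IP libraries came from separate cohorts, so their spread may be partly technical.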

Additional observations from a re-analysis of the deposited data

Results flagged for a closer look

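For each named gene past the level filter and each list, the 6 IP ratios were searched for a library whose gap to the nearest other library exceeded the 95% critical value of Dixon's test for 6 values. Such a gap was found in 43 of 372 sets of 6 values, where chance gives about 1 in 20 sets, and sets share libraries and in part genes. Library 1091 was the separate one in 32 of them.

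Library 1091 lay above the other 5 for Adcy1 (-1.07), Cacna2d1 (-0.65), Calb1 (-1.31), Fam107a (-3.45), Hlf (-1.69), Kcnc2 (-1.57), Kcnip4 (-1.89), Kcnj3 (-0.35), Mc3r (-1.48), P2ry12 (-1.39), Piezo2 (2.25), Pter (-4.19), Rgs7bp (-1.57), Rgs9 (1.90), Stxbp6 (-1.98) and Vipr2 (-1.06), given here as its log2 ratio to the input. Most of these genes had ratios below 0 in all libraries, and for Piezo2 and Rgs9 they were above 0. It lay below the other 5 for Ccdc155 (2.93), Epha8 (1.01), Fam219aos (5.54), Gpr4 (1.01), Necab2 (2.43), Neurod2 (2.83), Pde2a (3.34), Robo3 (1.98), Sik1 (1.36), Sstr4 (2.61) and Tesc (2.48), all with ratios above 0 in every library.

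Among list medians, library 1091 was separate for synaptic adhesion molecules (0.10, against -0.56 to -0.32 in the other 5), cytosolic ribosomal proteins (-1.16, against -0.27 to 0.15 in the other 5), nuclear-encoded oxidative phosphorylation (-0.39, against 0.42 to 0.89 in the other 5), histone genes (-0.036, against 0.77 to 1.05 in the other 5) and hippocampal and cortical neuron markers (-0.15, against -1.92 to -1.33 in the other 5).

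Other libraries were separate for 11 genes. Library 682 was lowest for Egr1 (-2.11), Nwd2 (2.63) and Zbed6 (4.25) and highest for Gal (-1.62). Library 852 was lowest for Tnnt1 (-4.92) and highest for Hcn4 (1.94), Nppc (-1.76) and Rims3 (-4.01). Library 1092 was highest for Fdx1l (-4.46) and Synpr (5.04). Library 1094 was highest for Sh3bp1 (-3.93). 

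Pcp4, a calmodulin-binding protein, differed between the libraries counted on the longer and on the shorter gene list. Libraries 682 and 852 had a median ratio of -1.28 and were both below the input, while libraries 1091 to 1094 had 2.49 and were all above it. The difference was not tested, and 23.7% of the exon bases of Pcp4 are overlapped by another gene.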

How the results depend on the processing

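Counts of enriched and depleted genes moved with the cutoff and the libraries used. A required ratio of 1.5 gave 1323 enriched and 1570 depleted genes, and a ratio of 4 gave 218 and 225. A pseudocount of 5 CPM gave 666 depleted genes. Libraries 682 and 852 alone gave 1317 enriched and 1769 depleted. Leaving out 1 IP library at a time gave 665 to 881 enriched and 1006 to 1401 depleted, in both cases highest without library 1091. The edgeR quasi-likelihood test (adjusted p under 0.05, 15899 genes) called 1120 enriched and 1430 depleted, and the DESeq2 Wald test (14631 genes) 1356 and 1622, both on the assumption that the lone input varies like the IP libraries. Of the 664 enriched genes edgeR called 657 and DESeq2 664, and of the 1001 depleted genes 910 and 951. Of 59 list medians 15 changed sign under at least 1 alternative. In 3 of these lists all 6 libraries lay on 1 side of 0: acetylcholine handling was -0.038 with library totals and -0.024 with no level filter, monoamine genes -0.029 and axon guidance genes -0.016 with no level filter. The other 12 had libraries on both sides of 0. Library totals turned 8 medians, each to between -0.16 and -0.038, libraries 682 and 852 alone turned 10, no level filter 7, a filter of 1 CPM 4, DESeq2 size factors 3, leaving out 1 IP library at most 2 and the restriction to at most 10% overlap 1. Where a count moved, the cause was not tested. The restriction to at most 10% overlap was added after the data were seen. Leaving out Rn45s, which is not among the shared symbols, was not run. No paired analysis was possible because the single input shares no replicate number with the IP libraries. With 21 input counts for Chrna5 and similar genes, depth limits the precision of their ratios.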
